A study of Saccharomyces cerevisiae with 30 samples.

Results

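Line 2 was represented by 3 of the 30 arrays, those whose titles set evolved 2 against ancestral 2 as replicates 1 to 3. On each of them, RNA of 1 evolved tetraploid clone of budding yeast (Saccharomyces cerevisiae, W303 background) was hybridised beside RNA of the tetraploid ancestor of the same line. The ancestor was an a/a/α/α tetraploid in which SPO11, a gene needed to start meiotic recombination, had been deleted, and the evolved clone descended from it through 1000 generations in the rich medium YPD at a lower temperature. For the RNA, both strains were grown to log phase in YPD at 36°C. RNA of the evolved clone carried Alexa Fluor 647 and that of the ancestor Alexa Fluor 555 on every array of evolved over ancestral cells, with no dye swap. The 7 other lines, with 3 arrays each, were measured in the same way, each against its own ancestor by the labels, and 6 further arrays set line 4 against a diploid. By the paper, lines carried either the kanMX6 or the cloNAT drug marker in alternation. The sample titles do not give the marker of a line, and its part in likeness between lines was not tested. Several features limit line 2 as a model of evolved tetraploids. It is a single colony, chosen for the highest fitness among the colonies picked from its population, and the 3 arrays are technical triplicates of RNA isolation, so each test below covers technical error and not variation between clones. The ratios were centred within each array, so a change in total RNA per cell cannot be seen, and fewer cells with a transcript cannot be told apart from less transcript per cell.

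As background, a newly made tetraploid yeast carries every chromosome in extra copies. Such cells are larger, missegregate chromosomes more often and tolerate heat poorly. Budding yeast moved to a high temperature raises transcripts for chaperones and for trehalose and glycogen metabolism, and lowers those for ribosomal proteins and for ribosome assembly, through the heat shock and general stress responses. A 2-colour array reports only the ratio of a pair of cultures, so a higher value in line 2 means more transcript in the evolved clone than in its ancestor at 36°C. The comparison asked which transcripts had changed in line 2, which of the changes were shared with the other lines, and which were particular to it.

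In outline, 46 rows of the table were at least 2-fold higher in the evolved clone of line 2 and 46 were at least 2-fold lower. These were 0.723% of the rows tested in each direction. All 92 had the same sign in line 6, beside 75.4% of all rows. The means of line 6 include an array whose nearest array was one of line 2. Of the 92 rows, only those measured in every line could meet the rule for rows private to line 2, and 0 did. Line 4, in which 8.39% of the rows tested were called, also called 41 of the 92 with the same sign. Line 1 had the opposite sign in 63 of the 85 rows measured in it, beside 57.6% of all rows. Here a row is 1 oligonucleotide of the array, and a called row has a Benjamini-Hochberg adjusted p under 0.05 in limma over all rows tested and a mean that reached 1 in size on the log2 scale, which is 2-fold.

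The rows carry systematic gene names, and 5840 of the 6377 names occur as locus tags in the R64 annotation. Whether the values bear these names out was examined first. Transcripts of ribosomal proteins rise and fall together in yeast. The 123 rows that carry their names and had values on all 30 arrays showed a mean pairwise correlation of −0.0030, against 0.0018 for the 5701 complete rows of the table. Names of the duplicated A and B genes for 1 ribosomal protein gave 57 pairs, with a median correlation of −0.0083, and 28 of the pairs lay above 0. In line 2, these copies had the same sign in 31 of the 57 pairs.

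A further check used a feature of the clone itself. The genomic DNA of the line 2 clone was found in the study to lack a segment of the right arm of chromosome VII from YGR039W to YGR119C. The 76 rows listed within it had medians of −0.040, 0.0071 and 0.0099 on the 3 arrays relative to all rows, a mean of −0.0077 ± 0.028 (SD, n = 3), with either sign when 1 array was left out. Loss of 1 of 4 copies would give −0.415 if RNA followed DNA. In the 7 other lines the same rows had means between −0.140 in line 3 and 0.0733 in line 1, so line 2 lay inside the range of lines in which that deletion was not found. These sets, pairs and this segment did not bear out the listed names. The identifiers below therefore only label rows of the table, and no gene name or function is given for them.

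The lists of listed names are given for completeness on the same footing. Of the 92 called rows, 0 fell among the 138 rows listed as ribosomal proteins, the 92 listed as ribosome biogenesis factors, the 40 tested rows listed as chaperones, the 30 listed as stress and reserve carbohydrate genes, the 34 listed as proteasome subunits or the 10 listed as histones. Among the 40 rows listed for oxidative phosphorylation, 1 was called lower. Over all rows 1.45% were called, so lists of these sizes would hold few calls or none at that share. The medians of these lists in line 2 ranged from −0.037 for ribosome biogenesis to 0.083 for chaperones, beside −0.0082 over all 6360 rows tested. The 28 rows listed as mitochondrially encoded were the exception, with a median of 0.198, a mean pairwise correlation of 0.119 and 0 calls. They are also the first rows of the table, and whether place in the table or gene content accounts for their likeness was not tested.

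Place in the table moved with the values more widely. Over the 2970 pairs of neighbouring rows listed on 1 chromosome arm and on the same strand, the correlation of line 2 means was 0.247, and it was 0.232, 0.251 and 0.204 on the single arrays. Over the 3347 neighbouring pairs listed on different strands it was 0.017. Line 6 gave 0.262 and 0.016 for the same pairs. Within an arm and strand, the correlation in line 2 fell to 0.150 for rows 2 apart and to 0.0727 for rows 5 apart, and it was still 0.0692 for rows 20 apart. The calls of line 2, its differences from the other lines and the correlations between lines were therefore also computed after subtracting a running median over 21 rows of the same arm and strand. The part of array layout in the results was not tested beyond this and a running median over 99 rows.

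The 3 arrays of line 2 resembled each other closely. The correlations between them over rows were 0.867, 0.869 and 0.916, and the median SD of a row over the 3 arrays was 0.091. Of the rows, 6343 had values on all 3 arrays, 65 cells were empty and 1 cell stood at the floor of −6.64 and was set to missing. No pair of the 30 arrays was identical, and array medians lay between −0.0324 and 0.0374. The median size of change in line 2, as the absolute log2 ratio, was 0.207 ± 0.011 (SD, n = 3). Only line 4, at 0.321 ± 0.025, lay above this, while lines 1, 5 and 6 had 0.203 ± 0.062, 0.187 ± 0.022 and 0.197 ± 0.032, and lines 3, 7 and 8 lay between 0.132 and 0.170.

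Most changes in line 2 were small. Of 6360 rows tested, 3043 (47.8%) passed the adjusted p, 1524 higher and 1519 lower, and 2951 of these changed less than 2-fold. Rows with a mean under 0.1 in size numbered 1788, those from 0.1 to 0.25 numbered 2076, those from 0.25 to 0.5 numbered 1618 and those from 0.5 to 1 numbered 786. The 92 called rows made up 1.45% of the rows tested. All 92 had 1 sign on the 3 arrays, and 52 were past 2-fold on each array. Their standard errors ran from 0.0569 to 0.348, with a median of 0.102, and their adjusted p-values reached at most 0.0221. The smallest called mean was 1.00 in size and the largest uncalled one past the adjusted p was also 1.00 to 2 decimals (0.999), so the limit did not fall in a gap. With a running median of 21 rows of the same arm and strand subtracted, 81 rows were called, of which 64 were among the 92. Called rows with the same sign were neighbours in the table in 4 pairs. Of these, 3 were among the 2970 pairs on the same strand and 1 among the 3347 on different strands, where 0.723% of rows were called in each direction. Whether called rows cluster in the table was not tested.

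**Figure D1:**
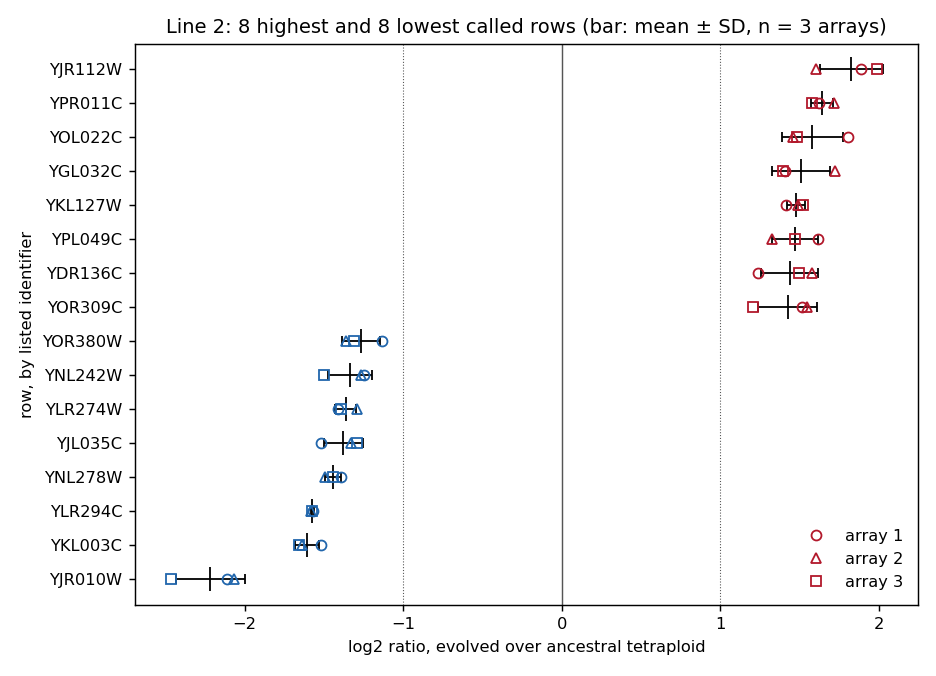
Called rows of line 2 with the 8 highest and the 8 lowest means, with the log2 ratio of evolved over ancestral tetraploid on the horizontal axis. Symbols are the 3 arrays, the black bar is the mean with its SD, dotted lines mark 2-fold, and every single array lies past 2-fold in these 16 rows.

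Among the rows that rose, YJR112W stood highest. Its log2 ratios were 1.89, 1.60 and 1.99 on the 3 arrays, a mean of 1.83 ± 0.20 (SD, n = 3) or 3.54-fold (limma, adjusted p = 7.77e-12). The row was called higher in lines 4 and 6 too, at 1.87 and 1.41, while the 5 other lines lay between −0.02 and 0.36. YPR011C followed with 1.62, 1.72 and 1.58, a mean of 1.64 ± 0.07 or 3.12-fold, and was likewise called in line 4 at 1.54 and in line 6 at 1.42. YOL022C had 1.80, 1.46 and 1.48, a mean of 1.58 ± 0.19, beside 1.12 in line 4 and 1.61 in line 6. These 3 rows showed the same shape across lines, high in lines 2, 4 and 6 and under 2-fold in the others. YGL032C had it as well, with 1.41, 1.72 and 1.40 in line 2 (mean 1.51 ± 0.18), 1.85 in line 4 and 1.5 in line 6. So did YPL049C, with 1.61, 1.32 and 1.47 (mean 1.47 ± 0.15), 1.33 in line 4 and 1.46 in line 6.

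The remaining rows among the 8 highest differed in the lines that shared them. YOR309C, with 1.52, 1.55 and 1.21 in line 2 (mean 1.42 ± 0.19), was 1.14 in line 6 and larger in line 4, at 2.77. YDR136C, with 1.23, 1.58 and 1.5 (mean 1.44 ± 0.18), was called in line 6 at 1.17 but stood at 0.24 in line 4. YKL127W was the row of the 8 that no other line shared at 2-fold. It had 1.42, 1.49 and 1.52 on the 3 arrays, a mean of 1.48 ± 0.06 or 2.78-fold (adjusted p = 7.11e-16), while lines 5, 7 and 6 had 0.74, 0.69 and 0.46 and line 3 had −0.62.

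Among the rows that fell, YJR010W stood apart. Its log2 ratios of −2.11, −2.07 and −2.47 gave a mean of −2.22 ± 0.22 (SD, n = 3), a 4.65-fold decrease (adjusted p = 2.84e-10), and no other row of line 2 fell by as much. It was also the called row shared by the most lines. Lines 6, 5, 4 and 8 had means of −2.32, −2.11, −2.07 and −1.35, all called, and lines 7 and 3 had −0.96 and −0.78. Only line 1 had a positive mean for it, at 0.75, with 0.19, 0.78 and 1.27 on single arrays.

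YKL003C and YJL035C fell in lines 2 and 6 and were not called elsewhere. YKL003C had −1.52, −1.64 and −1.66 in line 2 (mean −1.61 ± 0.08) and −1.28, −1.74 and −1.58 in line 6 (mean −1.53). YJL035C had −1.52, −1.33 and −1.29 (mean −1.38 ± 0.12) beside −1.55, −1.65 and −1.20 in line 6 (mean −1.47). In both rows the arrays of the lines overlapped. YLR274W and YOR380W had lower means in line 4 than in line 2. YLR274W had −1.41, −1.29 and −1.39 (mean −1.36 ± 0.06), with −1.58 in line 4 and −1.39 in line 5, both called, and −0.81 in line 6. YOR380W had −1.13, −1.36 and −1.31 (mean −1.27 ± 0.12), with −1.51 in line 4 and −0.95 in line 5.

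Of the other rows among the 8 lowest, YNL278W was called in no other line. It had −1.40, −1.49 and −1.44 in line 2 (mean −1.44 ± 0.05, adjusted p = 2.19e-11), and was −0.62 in line 6 and between −0.28 and 0.37 in the 6 other lines. YLR294C had −1.57, −1.58 and −1.57 (mean −1.57 ± 0.01) but no mean in 3 other lines, so its sharing is only partly known. Its adjusted p of 5.66e-05 was the largest of the 16, since limma estimates the spread of a row over all groups. YNL242W fell in line 2 with −1.25, −1.26 and −1.5 (mean −1.34 ± 0.14) and was called lower in lines 1 and 6, at −1.02 and −1.11, but higher in line 3, at 1.04.

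**Figure D2:**
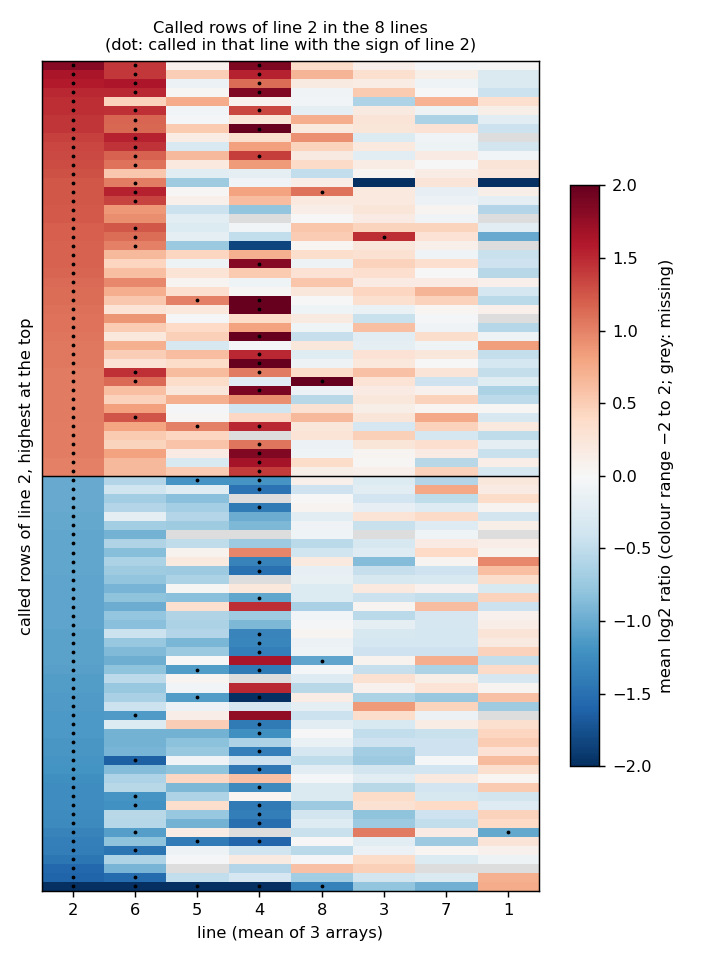
The 92 called rows of line 2 (vertical axis, highest at the top, with a line between the 46 higher and 46 lower rows) in the 8 lines (horizontal axis), coloured by mean log2 ratio of 3 arrays with the colour range ending at 2 in size. A dot marks a row called in that line with the sign of line 2, as 28 were in line 6 and 41 in line 4, and the column of line 1 shows mostly the opposite colour.

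Of the 92 called rows, 60 were called with the same sign in at least 1 other line, 32 higher and 28 lower. Of these, 40 were shared with 1 other line, 19 with 2 lines and 1 with 4 lines. Line 4 shared 41 of them, 20 higher and 21 lower, which is 44.6% of the calls of line 2 and 7.87% of the 521 calls of line 4, a line in which 8.39% of the rows tested were called, 3.88% higher and 4.51% lower. Line 6 shared 28, 20 higher and 8 lower, which is 30.4% of the calls of line 2 and 59.6% of the 47 calls of line 6, where 0.739% of rows were called, 0.55% higher and 0.189% lower. Lines 5 and 8 shared 7 and 4 rows, with 0.366% and 0.204% of their rows called. Lines 1 and 3 shared 1 each with 0.624% and 0.584% called, and line 7, with 0.222% called, shared 0. All lines had the same dye orientation, so a dye effect tied to a probe does not cancel in counts of shared calls or signs. Its part in them was not tested.

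The rows shared with line 4 overlapped in part with those shared with line 6. Both lines called 10 of the rows, 8 higher and 2 lower, where line 4 called 44.6% and line 6 called 30.4% of the 92. Whether the overlap departs from these shares was not tested. All 92 had the sign of line 2 in line 6, so the split by line 6 rests on the 2-fold limit. Line 4 and not line 6 called 31, of which 12 were higher and 19 lower. Line 6 and not line 4 called 18, of which 12 were higher and 6 lower. A further row was shared with other lines only, and 32 rows, 14 higher and 18 lower, were called with the sign of line 2 in no other line.

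Means below the 2-fold limit showed more likeness to line 6 than the calls did. All 46 higher rows of line 2 were above 0 in line 6, with a median of 0.878, and all 46 lower rows were below 0 there, with a median of −0.794, beside a median of −0.0109 over all 6354 rows measured in both lines. In line 6 alone, 44 of the 46 higher and 43 of the 46 lower rows passed the adjusted p in the direction of line 2, where 19.2% and 20.8% of all rows passed it upward and downward. The mean in line 6 was smaller than in line 2 in 80 of the 92 rows, with a median ratio of 0.743. The rows were chosen for being large in line 2, which by itself makes the values of any other line smaller on average.

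Line 4 had the sign of line 2 in 34 of 44 higher and 32 of 41 lower rows, with medians of 0.831 and −1.04. In line 5 the lower rows had the same sign in 34 of 44 and a median of −0.611, while the higher rows had a median of 0.157. Lines 3, 7 and 8 had medians between 0.0630 and 0.198 for the higher rows and between −0.318 and −0.217 for the lower ones. In line 1 the medians were −0.303 for the higher and 0.229 for the lower rows. It was opposite in sign to line 2 in 30 of 42 higher and 33 of 43 lower rows. Over all rows measured in both lines, the sign of line 2 was found in 75.4% for line 6, 63.2% for line 5, 59.5% for line 4 and 42.4% for line 1.

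The direction of line 1 was taken from the dyes in the labels, and its arrays ran against those of some other lines of the same dye orientation. The correlations of its arrays with those of line 3 were −0.718 to −0.364, with those of line 4 −0.385 to −0.198 and with those of line 2 −0.241 to −0.108. With the sign of line 1 turned, the counts above became 30 of 42 and 33 of 43 with the sign of line 2, 2 calls of line 2 were shared with line 1 in place of 1, and the correlation below became 0.206. Line 2 minus line 1 then gave 2452 rows past the adjusted p and 137 calls, and line 2 minus the mean of the other lines gave 10 higher and 13 lower calls. The count of private rows was 0 either way.

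Many lower rows had 1 set of signs across lines, a set chosen after the values were seen. Of the 39 lower rows with a mean in all 8 lines, 26 (66.7%) were below 0 in lines 3, 4, 5 and 6 and above 0 in line 1. Among all 3102 rows below 0 in line 2 with a mean in every line, 24.3% had these signs. The median over the 26 rows was −1.11 for line 2. For lines 4, 6 and 5 it was −1.31, −0.79 and −0.76, for lines 3, 7 and 8 it was −0.42, −0.40 and −0.15, and for line 1 it was 0.35. YLR274W, YOR380W and YJR010W, described above, belong to this group by their signs.

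**Figure D3:**
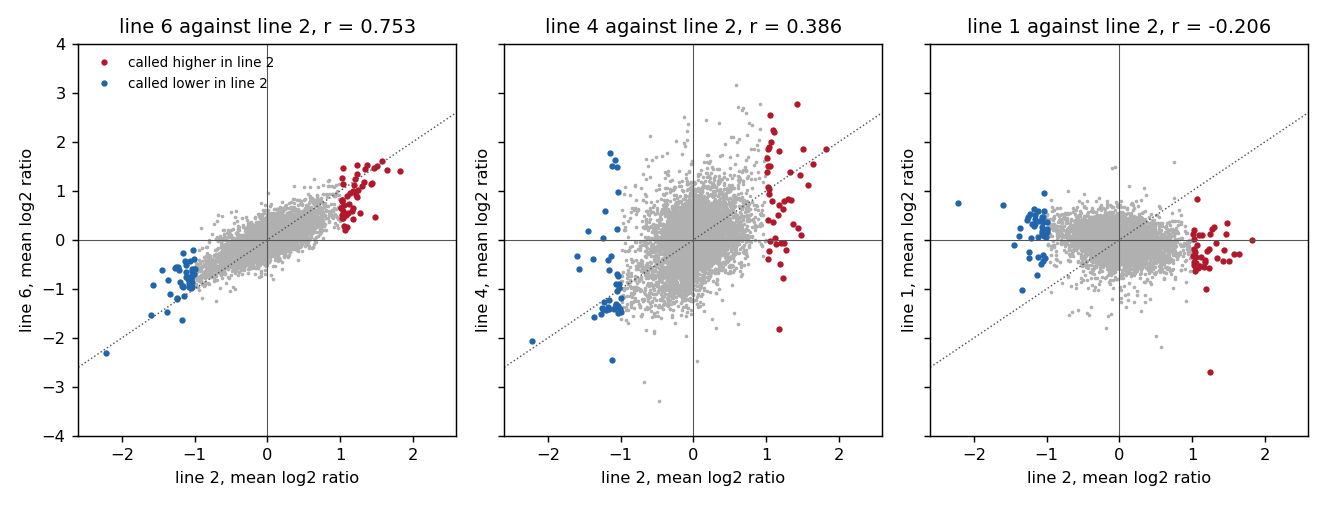
Mean log2 ratio of each row in line 2 (horizontal axis) against that in line 6, line 4 and line 1 (vertical axis), each the mean of 3 arrays, with the dotted line marking equal values. Red and blue points are the rows called higher and lower in line 2, which have the sign of line 2 in line 6 but are smaller there in 80 of 92 rows, lie on both sides of 0 in line 4, and are mostly on the opposite side of 0 in line 1.

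Over all rows, line 6 was the most like line 2. The Pearson correlation of line means was 0.753 over 6354 rows, and the 3 single arrays of line 2 gave between 0.679 and 0.784 against the mean of line 6. Line 5 followed at 0.436, line 4 at 0.386, line 3 at 0.240, line 8 at 0.215 and line 7 at 0.177, and line 1 was negative at −0.206. The ranges over single arrays of line 2 were 0.392 to 0.446 for line 5 and 0.327 to 0.394 for line 4, which overlap, while the range for line 6 lay apart from all others. Line 3, with 0.216 to 0.252, lay above line 7, with 0.150 to 0.204, and line 8, with 0.178 to 0.248, overlapped both. After a running median over 21 rows of the same arm and strand, line 3 had 0.260 and line 7 had 0.224. These are correlations across rows on arrays with the same probes and dye orientation, and rows are not independent replicates, so they carry no p-value.

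The arrays of lines 2 and 6 were not cleanly separated. The 9 correlations between an array of line 2 and an array of line 6 ran from 0.463 to 0.785, with a mean of 0.639, while the 3 arrays of line 6 correlated with each other at 0.468 to 0.768. Array 3 of line 6 stood out, with correlations of 0.785, 0.652 and 0.744 with the arrays of line 2 against 0.468 and 0.699 with the other 2 arrays of its own line. Its nearest array among the 24 was one of line 2. Every array of line 2 was nearest to another array of line 2, and none had a correlation above 0.441 with an array outside lines 2 and 6. Without array 3 of line 6, the correlation of the line means was 0.658, line 6 had 74 calls and 31 of them were shared with line 2. The label of this array was kept, what it holds was not tested, and the counts of signs in line 6 include it.

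**Figure D4:**
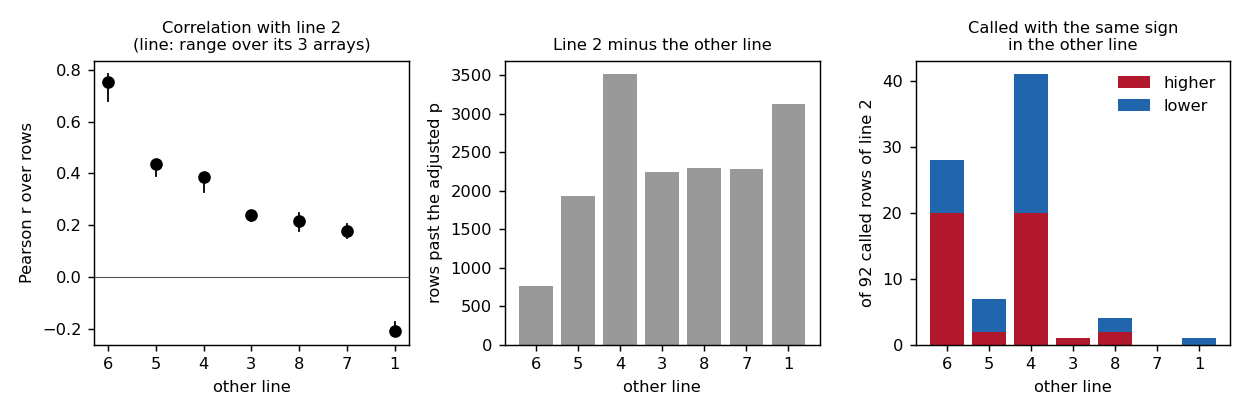
Line 2 against each of the 7 other lines, ordered by correlation. The left panel gives the Pearson correlation of row means with the range over the 3 arrays of line 2, the middle panel the rows past the adjusted p for line 2 minus the other line (765 for line 6, 3511 for line 4), and the right panel the called rows of line 2 that were called with the same sign in the other line.

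Differences between lines were also tested directly, and in these a dye effect tied to a probe cancels. For line 2 minus line 6, 765 of 6354 rows (12%) passed the adjusted p and 8 (0.126%) were also past 2-fold. The 765 became 517, 409 and 1120 without array 1, 2 or 3 of line 6. The same test gave 1933 rows (30.8%) and 88 calls (1.40%) for line 5, 2246 (35.5%) and 134 (2.12%) for line 3, 2278 (36.3%) and 131 (2.09%) for line 7, and 2295 (36.1%) and 102 (1.61%) for line 8. Against line 1 it gave 3122 rows (50.0%) and 322 calls (5.16%), and against line 4 it gave 3511 (56.7%) and 369 (5.96%). Line 2 thus differed from line 4 in the most rows although they shared the most calls. In line 4, 5 of the 92 called rows were called in the opposite direction, beside 3.88% of all its rows called higher and 4.51% lower.

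No row met the rule for a private change, which asked for a call in line 2, a difference from the mean of the 7 other lines past the adjusted p with the same sign, and a mean under 0.5 in size in every other line. The count was 0 of 92. Only a row with a mean in every other line could meet the rule. Among the 32 called rows with no same-sign call in another line, 24 had such means. With line 6 left out of the 0.5 limit, a choice made after seeing the data, 4 rows met the rule. YDR022C was higher, with 1.19, 1.27 and 1.35 in line 2, and its mean of 1.27 compared with 0.54 in line 6 and −0.49 to 0.22 in the 6 others. YLR370C was higher, at 1.03 in line 2, 0.82 in line 6 and −0.40 to 0.31 in the others. YJL202C and YNL278W were lower, at −1.05 and −1.44 in line 2, −0.93 and −0.62 in line 6, and between −0.30 and 0.37 in the other lines.

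The 32 rows called in no other line with the sign of line 2 are part of the 92. Their shared sign in line 6 therefore adds nothing to the count above. The mean in line 6 had a median size of 0.721 and a range of 0.202 to 0.988, with its upper end limited by the lack of a call. In 29 of the 32 it passed the adjusted p in the direction of line 2, beside 19.2% of all rows upward and 20.8% downward. Line 6 had the mean of largest size among the other lines in 18 of these rows and line 4 in 10. Among the 24 of these rows measured in every line, the largest mean in another line was nowhere under 0.543 in size. A size of at least 0.5 there follows from the count of 0 private rows.

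The mean of the 7 other lines gave a further comparison. Of 6070 rows with values in every line, 2189 (36.1%) passed the adjusted p for line 2 minus this mean, and 22 (0.362%) were also past 2-fold, 12 higher and 10 lower. Line 2 itself was called in 20 of the 22. Line 6 had the sign of the difference in all 22 and was itself called in 10. With line 6 left out of the mean the count was 38, and with line 7 left out it was 14.

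The largest difference from the other lines was in YLR151C, at 1.90 with a standard error of 0.18. Its values in line 2 were 1.28, 1.16 and 1.28 and in line 6 they were 1.01, 1.05 and 1.01. Lines 1 and 3 had means of −2.70 and −2.56. The next of the positive differences was that of YJR092W, at 1.30, with values of 1.11, 1.18 and 1.39 in line 2 beside 0.87 in line 6 and −0.78 in line 4. Its mean in no other line reached 2-fold. The largest negative difference was that of YNL278W, at −1.37 with a standard error of 0.11, followed by YNL093W at −1.27, whose values in line 2 were −1.34, −0.98 and −1.34.

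Of the 92 rows, 8 were called in the other direction in at least 1 line, 3 of them higher and 5 lower in line 2. In 5 of the 8 the opposite line was line 4. That line measured 44 of the higher and 41 of the lower rows, and 3.88% of all its rows tested were called higher and 4.51% lower. Lines 1 and 3, with 0.624% and 0.584% of their rows called, held the other opposite calls. YDL170W, YDL016C, YDL245C and YNR056C fell in line 2, with means of −1.15, −1.08, −1.12 and −1.06, and rose in line 4, at 1.78, 1.63, 1.51 and 1.48. YNR077C went the other way, at 1.18 in line 2 and −1.83 in line 4. Line 6 had the sign of line 2 in each of these rows, between −1.14 and −0.76 in those that fell and at 1.00 in YNR077C.

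A stricter comparison asked which rows of line 2 differed from each of the 7 other lines with 1 sign. This held for 118 of 6070 rows (1.94%), with 84 above and 34 below every other line. The count fell to 67, 94 and 52 without array 1, 2 or 3 of line 2. Place in the table moved with it. Of the 84 higher rows, 51 carried names beginning YI, YJ or YK, a stretch of the table chosen after the values were seen that held 15.1% of the 6070 rows, against 2 of the 34 lower rows. The median of this stretch relative to the rest of the table was 0.0688, 0.0757 and 0.0702 on the arrays of line 2 and −0.0678, −0.0597 and −0.0635 on those of line 6. In the 6 other lines its mean lay between −0.0474 in line 8 and 0.0078 in line 1. After a running median over 99 rows, 81 rows differed from every line, 68 of them among the 118, and after one over 21 rows of the same arm and strand there were 47, of which 32 were among the 118. In the latter, 2 of the 27 higher rows lay in the stretch. All of the 118 passed the adjusted p in line 2 itself. Line 6 had the sign of line 2 in 90 of them, beside 75.4% of all rows measured in both lines. Their means in line 2 were mostly under 2-fold, with a median of 0.58 and a range of 0.29 to 1.48 for the higher rows and a median of −0.65 and a range of −1.44 to −0.26 for the lower ones. Only 6 were called in line 2. YKL127W, which is listed in that stretch, YDR022C, YNL020C and YNL019C were higher, at 1.48, 1.27, 1.18 and 1.16, and YGL167C and YNL278W were lower, at −1.04 and −1.44. YNL020C and YNL019C are listed next to each other on the same strand and had like values, with 0.97, 1.38 and 1.18 in the first and 1.11, 1.35 and 1.02 in the second.

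**Figure D5:**
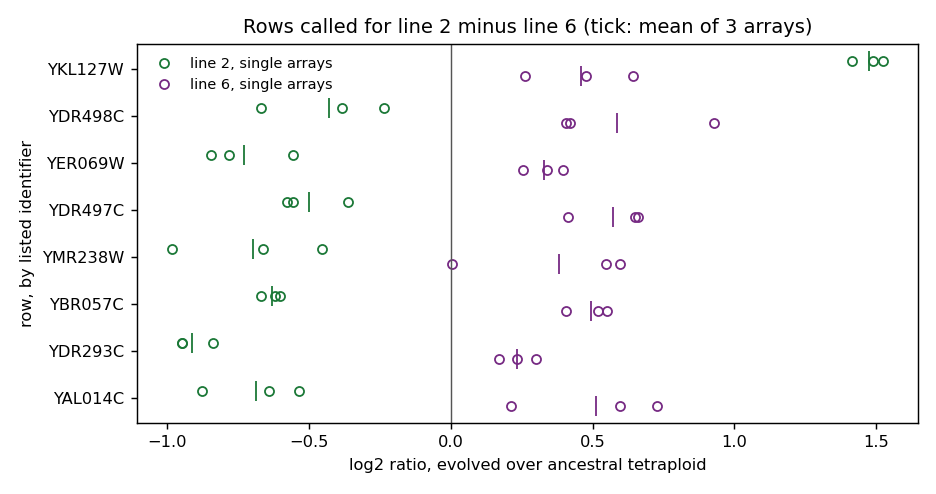
The 8 rows past the adjusted p and 2-fold for line 2 minus line 6, with the log2 ratio of evolved over ancestral tetraploid on the horizontal axis. Circles are single arrays and ticks are means, with line 2 in green and line 6 in purple. In each row the 3 arrays of line 2 lie apart from the 3 of line 6, which the choice of rows by this difference favours.

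The 8 rows that separated line 2 from line 6 were mostly rows in which line 2 fell and line 6 rose, each by less than 2-fold. The exception was YKL127W, higher in both lines, with 0.26, 0.48 and 0.64 in line 6 against the values near 1.5 given above for line 2, a difference of 1.02 (adjusted p = 1.39e-08). YAL014C had the largest difference, at −1.20 (adjusted p = 0.0063), with −0.88, −0.64 and −0.54 in line 2 and 0.21, 0.60 and 0.73 in line 6. In YDR293C the values were −0.95, −0.95 and −0.84 against 0.17, 0.23 and 0.30, a difference of −1.15. The groups of 3 arrays did not overlap in any of the 8 rows, but the rows were chosen by their difference on these arrays, which favours such a gap. YBR057C had −0.62, −0.67 and −0.60 against 0.52, 0.55 and 0.41, a difference of −1.12. In YMR238W the values were more spread, with −0.98, −0.66 and −0.45 against 0.55, 0.60 and 0.01, a difference of −1.08. YDR497C, with a difference of −1.07, is listed next to YDR498C on the same strand, which differed by −1.02, and the eighth row, YER069W, differed by −1.06.

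These 8 calls were the least firm of the results on line 2. Subtracting a running median over 21 rows of the same arm and strand left 0 of them past 2-fold, with differences of 0.70 in YKL127W and −0.96 in YAL014C. Without array 1 of line 2 there were 5 calls, and without array 3 of line 6 there were 21, of which 19 were lower in line 2.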

How the data were processed

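The authors hybridised spotted oligonucleotide arrays and deposited log2 ratios, made in GeneSpring GX after leaving out spots of intensity close to background and after LOWESS normalization within each array. How bright single spots were against background is not known here, since no scanner file was read, and precision is limited by the number of arrays. The direction of the deposited log2 ratios was taken from the labels, which give the evolved clone Alexa Fluor 647. Cells at −6.64, the log2 of 0.01, numbered 84 and were set to missing.

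Groups came from the sample titles. All 10 groups were fitted in 1 model with limma 3.58.1 in R 4.3.3 (lmFit and eBayes), with Benjamini-Hochberg adjustment over all rows tested. A row needed values on at least 2 of 3 arrays of each line compared, calls were made at an adjusted p under 0.05 with a mean or difference of 1 or more in size, and means were rounded to 10 decimals. Differences between lines were contrasts in the same fit. The procedure was tested on simulated data. Figures were drawn in Python 3.11.15 with matplotlib 3.10.9.

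The members, lists and rules were chosen with earlier results of these data known. The rule for named rows took the 8 highest and 8 lowest calls of line 2, the 5 calls shared with the most lines (ties by size), and the 5 highest and 5 lowest differences from line 6. Private rows had a place in the rule and there were 0. Other rows named are those of small counts and were chosen after their values were seen. Besides the listed order, other orders of names against values were searched in an exploratory way, and none was adopted.

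Alternatives were other scalings, filters and fold limits, the floor kept, only the compared lines fitted, a robust prior, the replicate number as a block, the methods' t-test (a one-sample t-test with the 2-fold limit and the p limit of 0.005 in the methods, which name no test), and each array or line left out. Running medians along the table, the sign of line 1 turned, line 6 left out of the private limit and arrays of lines 4 and 6 left out were chosen after seeing the data.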

Additional observations from a re-analysis of the deposited data

Results flagged for a closer look

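The tested differences between lines were taken for a closer look because line 2 and other lines changed by different amounts under the same comparison of evolved with ancestral cells. For line 2 minus the mean of the 7 other lines, 22 rows were past the adjusted p in limma and 2-fold, and for line 2 minus line 6 there were 8. Single rows of the latter were YKL127W at 1.02, YAL014C at −1.20, YDR293C at −1.15, YBR057C at −1.12, YMR238W at −1.08 and YDR497C at −1.07. In each of these 6 rows the 3 arrays of line 2 lay on 1 side of the 3 arrays of line 6. The rows were chosen by their difference on the same arrays, which favours such a gap.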

How the results depend on the processing

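The 92 calls of line 2 numbered between 92 and 107 with 1 of its arrays left out, and stayed within 1.5 times of 92 under the other alternatives except the fold limit. With no fold limit the counts were 3043 for line 2, 2189 for line 2 minus the mean of the other lines and 765 for line 2 minus line 6, and at 1.5-fold they were 618, 270 and 120. Quantile normalization gave 82 calls, of which 80 were among the 92. The methods' t-test called 64 rows at its own limit and 75 after Benjamini-Hochberg adjustment. For line 2 minus the mean of the other lines, the count was 38 without line 6, 14 without line 7 and 20 to 24 without 1 array of line 2. For line 2 minus line 6, the count was 5 to 8 without 1 array of line 2 (5 without array 1), 21 without array 3 of line 6, 5 after a running median over 99 rows and 0 after one over 21 rows of the same arm and strand. Private rows numbered 0 to 1 without 1 array of line 2 (1 without array 2), 4 with a limit of 0.7 and 4 with line 6 left out of the limit. Spearman's rho was 0.270 for line 3, 0.323 for line 4, 0.401 for line 5, 0.692 for line 6 and 0.166 for line 8. Keeping the floor cells gave a correlation of 0.396 for line 5, the running median over 21 rows gave 0.260 for line 3 and 0.224 for line 7, and leaving out 1 array of line 6 gave 0.658 (array 3) to 0.774 for line 6. The mean in place of the median gave −0.047 for the listed chromosome VII segment. With the sign of line 1 turned, its correlation with line 2 was 0.206 by construction. The listed chromosome VII segment lay between −0.0165 and 0.0085 without 1 array of line 2, so its sign was not fixed. No other sign was reversed in the results and alternatives run. The cause of these shifts was not tested, other than where fewer rows, lines or arrays entered. With the replicate number as a block, 93 rows of line 2 were called, among them all 92. Deviations of same-numbered arrays correlated between −0.371 and 0.577 over the 21 pairs of line 2 with another line, and 9 exceeded 0.1, so the numbers did not pair the arrays across all lines. With line 8 alone, the 3 pairs had 0.577, 0.291 and 0.182, all positive. A fit of lines 2 and 8 called 104 rows with and without the block, but rows past the adjusted p rose from 3165 without it to 3679 with it. Depth of signal on single spots is unknown, each line is 1 clone, and the tests cover technical error.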
